A study of Mus musculus with 20 samples.

Results

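Respiratory complex I (NADH:ubiquinone oxidoreductase) subunits were followed in hearts of aged mice that received rapamycin in the diet or did not. The members were the rows of the count table whose symbol is Nduf followed by a, b, c, s, v or ab and a number, which gave 37 genes among 34291 rows. Poly(A) RNA of whole frozen hearts was sequenced from 20 C57BL/6 mice, all 27 months old. The rapamycin group (n = 10) had been fed 14 ppm rapamycin, an inhibitor of the mTOR kinase, for 3 months from the age of 24 months, and the control group (n = 10) a control diet over the same months. All animals shared strain and age. Sex was not stated in the labels, and 1 dose and 1 age were studied.

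Complex I is the entry point for most electrons into the mitochondrial respiratory chain. It oxidises NADH made by the citric acid cycle and fatty acid oxidation, passes the electrons along iron-sulfur clusters to ubiquinone and pumps protons across the inner membrane. Its peripheral arm carries the NADH-oxidising N module and the quinone-reducing Q module, and its membrane arm, with a proximal and a distal part, holds the proton pumps. Cardiac muscle contracts without pause and is densely packed with mitochondria, so its cardiomyocytes hold large amounts of the complex. Most subunits are encoded in the nucleus, the membrane-embedded core being encoded in mitochondrial DNA.

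All 37 subunits had a higher mean in rapamycin hearts than in control hearts, by small amounts, with the TMM scaling factors used throughout (34 of 37 with total counts alone). The fitted log2 fold changes (rapamycin over control) ran from 0.07 to 0.35 with a median of 0.18, a 1.13-fold difference, beside a median of -0.0098 over the 13940 genes tested. None of the 37 passed the threshold of an adjusted p of 0.05 in edgeR's quasi-likelihood test with Benjamini-Hochberg adjustment over all genes tested, and the smallest adjusted p was 0.0782. Of all genes tested, 3.36% passed in either direction and 0.689% were higher with rapamycin. At an unadjusted p under 0.05, 9 members were higher in rapamycin hearts (Ndufa1, Ndufa13, Ndufa3, Ndufa7, Ndufv1, Ndufb4, Ndufs6, Ndufs1 and Ndufa9), beside 8.21% of all genes. DESeq2, as another tool, called 2 of the 37 as higher, beside 6.3% of 16402 genes in either direction and 2.02% higher with rapamycin. A log2 fold change above 0 was found in 47.5% of all genes and in 61.2% of the 5661 genes whose mean level lay within the members' range.

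One library, control 19, stood apart and bore on these values. It held the lowest level of the 20 libraries in all 37 subunits, as it did in 25.4% of all genes tested, and its subunits stood at 41.1% to 82.3% of the mean of the other controls, with a median of 55.7%. Its summed cardiomyocyte markers stood at 37.3% of that mean, and 6 lung genes summed to 24323 CPM in it (CPM being the count relative to the scaled library total), against at most 398 CPM in any other library. Without control 19 all 37 log2 fold changes remained above 0, from 0.04 to 0.26 with a median of 0.12, a 1.09-fold difference, beside a median of 0.0047 over all genes. All 37 were smaller than with it, and all 37 standard errors were smaller too. None passed in that fit either, in which 3.38% of genes passed in either direction and 1.05% were higher with rapamycin. The smallest adjusted p was then 0.0771, and 9 members had an unadjusted p under 0.05, beside 8.94% of genes higher with rapamycin. A log2 fold change above 0 was then found in 51.4% of all genes, and in 65.2% of those in the members' range of levels. Leaving out also the other libraries with lung transcripts (control 1, control 20 and rapamycin 15) gave a median of 0.09, with 36 of 37 members above 0 and none called, beside 2% of genes.

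**Figure D1:**
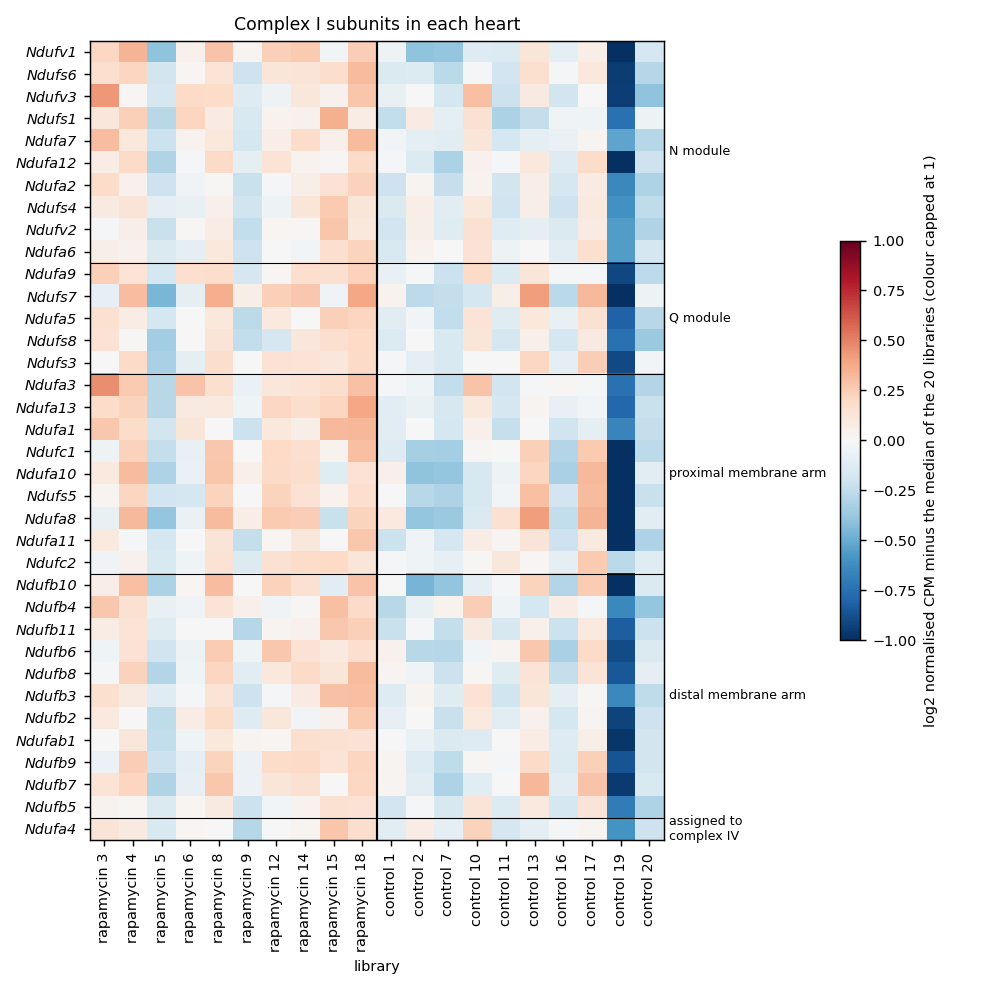
Level of 36 complex I subunits (down the page, by module) in the 10 rapamycin and 10 control hearts (across), as log2 normalised CPM minus the median of the 20 libraries, with colours capped at 1 above and below. Control 19 is the lowest library in all 36 rows, and rapamycin 8 and rapamycin 18 lie above the median in all 36.

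Depth was 8525162 to 12458309 counted reads in rapamycin libraries and 7039514 to 10594335 in control libraries, the smallest being control 19. The lowest count of any subunit in any library was 145, so that no member was near the detection limit. All 16 cardiomyocyte markers were present in every library at 349 CPM or more. Macrophage markers moved with the groups: 9 of 14 fell in rapamycin hearts in edgeR's test, beside 373 of all 13940 genes tested. Without control 19, 10 of 14 fell, beside 325 of 13977 genes. The macrophage sum was 554 to 1083 CPM in rapamycin libraries and 765 to 3760 CPM in control libraries. The highest was control 19, and the other controls had 765 to 1558 CPM. None of 9 endothelial, none of 9 fibroblast and none of 6 adipocyte markers passed. All 6 adipocyte markers had a log2 fold change above 0, with a median of 0.19 (0.24 without control 19). Their sum was 21.2 to 454 CPM in rapamycin libraries and 17.1 to 300 CPM in control libraries. The part of these markers in the subunit differences was not tested.

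Several regulators of respiratory genes bind promoter motifs that can be read from the sequence. A promoter window of 250 bases upstream to 50 bases downstream of the start was available from RefSeq (GRCm38.p6) for 33 of the 37 subunits, and exact motif matches were counted on both strands. The motif of nuclear respiratory factor 1 (GCGCA, any base, then GCGC) was found in 7 of the 33 windows (21.2%) and in 5.19% of 27025 genes. These are shown because 3 of the 9 matches lie in the window of Ndufb4, and because all but that of Ndufa6 lie upstream of the start. Each line is 30 bases on the strand of the gene with the motif in capitals, which in Ndufa6, Ndufa8 and Ndufs6 lies on the opposite strand and so reads as its reverse complement:
Ndufa11 (chr17:56717692-56717721, plus strand): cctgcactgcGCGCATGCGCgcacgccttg
Ndufa5 (chr6:24527697-24527726, minus strand): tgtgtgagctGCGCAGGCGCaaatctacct
Ndufa6 (chr15:82354249-82354278, minus strand): ccgtggcaccGCGCGTGCGCacgctgaagg
Ndufa8 (chr2:36049349-36049378, minus strand): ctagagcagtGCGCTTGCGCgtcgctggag
Ndufb4 (chr16:37654540-37654569, minus strand): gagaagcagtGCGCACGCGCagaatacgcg
Ndufb4 (chr16:37654428-37654457, minus strand): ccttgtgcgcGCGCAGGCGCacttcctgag
Ndufb4 (chr16:37654371-37654400, minus strand): cctcatatccGCGCAGGCGCagatgtgcgc
Ndufs5 (chr4:123718265-123718294, minus strand): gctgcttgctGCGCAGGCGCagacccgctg
Ndufs6 (chr13:73328479-73328508, minus strand): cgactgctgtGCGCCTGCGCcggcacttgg

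The motif of the factor YY1, AAGATGG, was found in 7 windows (21.2%), against 7.28% of all genes. All 7 matches lay on the transcribed strand between 22 and 38 bases downstream of the start, and in all 7 the ATG inside the motif was an annotated start codon in GENCODE M21. The motif letters therefore overlap the translation start in these lines, in which capitals mark the motif:
Ndufa3 (chr7:3617384-3617413, plus strand): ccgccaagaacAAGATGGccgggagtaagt
Ndufa9 (chr6:126849097-126849126, minus strand): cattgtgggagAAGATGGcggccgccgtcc
Ndufb8 (chr19:44555393-44555422, minus strand): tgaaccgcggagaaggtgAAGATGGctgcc
Ndufc1 (chr3:51408915-51408944, minus strand): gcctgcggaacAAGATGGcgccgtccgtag
Ndufs4 (chr13:114388045-114388074, minus strand): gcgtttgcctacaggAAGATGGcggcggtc
Ndufs6 (chr13:73328433-73328462, minus strand): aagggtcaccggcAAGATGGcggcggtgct
Ndufs7 (chr10:80249462-80249491, plus strand): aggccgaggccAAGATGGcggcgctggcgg

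The upstream 250 bases of Ndufb4 hold the nuclear respiratory factor motif 3 times, at -191, -79 and -22 from the start, together with 1 SP1-type and 1 NF-Y-type match on the opposite strand, all in capitals:
Ndufb4 upstream (chr16:37654369-37654618, minus strand): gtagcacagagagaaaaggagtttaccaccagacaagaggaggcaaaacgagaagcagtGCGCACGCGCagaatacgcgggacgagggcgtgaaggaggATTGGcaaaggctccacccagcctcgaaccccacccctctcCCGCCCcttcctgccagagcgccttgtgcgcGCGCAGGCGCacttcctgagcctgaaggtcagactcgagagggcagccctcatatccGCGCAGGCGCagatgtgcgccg

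Other motifs stood nearer to their share of all promoters. The SP1 motif GGGCGG was in 15 windows (45.5%, against 38.2% of genes), the NF-Y motif CCAAT in 10 (30.3%, against 41.1%) and the ETS and GABP motif CCGGAAG in 4 (12.1%, against 9.93%), where in Ndufs3 it shares letters with an SP1 match. The motif of the estrogen-related receptors, TCAAGGTCA, was in 0 of 33 windows and in 126 of the 27025 genes. Subunits with the nuclear respiratory factor motif had log2 fold changes from 0.08 (Ndufa6) to 0.25 (Ndufs6), inside the range of the whole set. A match describes letters in a window and no more.

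In the N module, which holds the flavin and the first iron-sulfur clusters, all 10 subunits had a log2 fold change above 0, with a median of 0.18 (0.15 without control 19). Ndufv1 binds the flavin mononucleotide at which NADH is oxidised. It had 360, 554 and 600 CPM (lowest, median and highest) in rapamycin hearts, against 181, 433 and 516 CPM in control hearts. The groups overlapped, with 6 rapamycin libraries above every control and rapamycin 5 at the level of the lower controls. Its mean was 522 ± 72.3 CPM in rapamycin hearts and 411 ± 94.8 CPM in control hearts (SD, n = 10 each), a log2 fold change of 0.35 ± 0.13 (SE), the largest of the 37, with an edgeR adjusted p of 0.141. Without control 19 the control mean was 436 ± 52.8 CPM (n = 9), the log2 fold change 0.26 ± 0.09 and the edgeR adjusted p 0.0883.

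Ndufs1, the largest core subunit, carries several of the iron-sulfur clusters. It had 604, 774 and 938 CPM (lowest, median and highest) in rapamycin hearts, against 437, 695 and 816 CPM in control hearts. Only the 3 highest rapamycin libraries stood above every control, and the groups overlapped. The means of 776 ± 96.7 CPM with rapamycin and 668 ± 108 CPM in controls (SD, n = 10 each) gave a log2 fold change of 0.22 ± 0.10 with an edgeR adjusted p of 0.191. Ndufs6, a zinc-binding subunit added late in assembly, had 172, 218 and 247 CPM in rapamycin hearts, against 103, 179 and 221 CPM in control hearts. Here 4 rapamycin libraries were above every control. Its means were 212 ± 23.6 CPM and 179 ± 33.1 CPM (rapamycin and control, SD, n = 10 each), with a log2 fold change of 0.25 ± 0.10 and an edgeR adjusted p of 0.162.

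Ndufa7, a small supernumerary subunit of the same module, had 98.9, 122 and 143 CPM in rapamycin hearts, against 79.5, 107 and 125 CPM in control hearts. The groups overlapped over most of their range. A log2 fold change of 0.20 ± 0.08 had an edgeR adjusted p of 0.134, and 0.17 ± 0.07 and 0.162 without control 19. Ndufa6, a member of the LYR protein family that binds the acyl carrier protein, had nearly equal levels, with 207, 243 and 278 CPM in rapamycin hearts and 162, 234 and 268 CPM in control hearts. Its log2 fold change of 0.08 ± 0.08 had the largest adjusted p of the 37 (edgeR, 0.596). The other N module members were Ndufv3, Ndufa12, Ndufa2, Ndufs4, whose loss causes a Leigh-like encephalopathy in mice, and the core iron-sulfur subunit Ndufv2. Their log2 fold changes lay between 0.13 (Ndufv2) and 0.23 (Ndufv3).

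**Figure D2:**
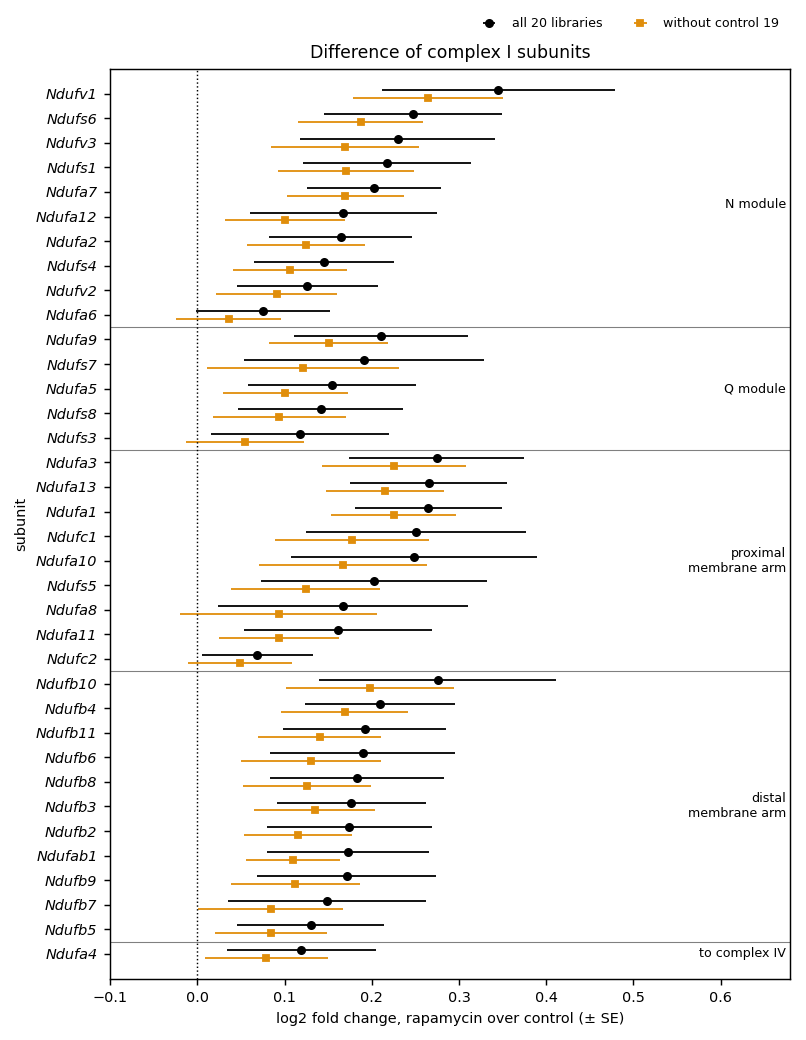
Fitted log2 fold change of 36 subunits, rapamycin over control, with its standard error, from all 20 libraries (circles) and without control 19 (squares), grouped by module. All points lie above 0, from 0.07 (Ndufc2) to 0.35 (Ndufv1) with all libraries, and each square lies left of its circle (TMM scaling; with total counts alone 3 subunits lie below 0).

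The Q module passes electrons to ubiquinone, and its 6 subunits had a median log2 fold change of 0.17 (0.11 without control 19). Ndufs3, a core subunit without a cofactor, had 155, 212 and 222 CPM (lowest, median and highest) in rapamycin hearts, against 104, 191 and 230 CPM in control hearts. No rapamycin library exceeded every control. Its log2 fold change was 0.12 ± 0.10 with an edgeR adjusted p of 0.525, and 0.05 ± 0.07 without control 19.

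Other Q module members were the iron-sulfur subunits Ndufs7 and Ndufs8, the nucleotide-binding Ndufa9 and the small Ndufa5. Their log2 fold changes lay between 0.14 (Ndufs8) and 0.21 (Ndufa9). Among the 7 nuclear-encoded core subunits, which bacterial complex I also has, the median was 0.19 (0.12 without control 19), against 0.18 (0.13) in the 29 supernumerary members assigned to complex I.

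The proximal membrane arm had the highest module median, 0.25 (0.17 without control 19), over 9 subunits. Its small subunits Ndufa1, Ndufa13 and Ndufa3 had the 3 smallest p-values of the set. Ndufa1, an X-linked single-pass membrane protein needed for assembly, had 148, 187 and 217 CPM (lowest, median and highest) in rapamycin hearts, against 109, 156 and 178 CPM in control hearts. The groups were nearest to separate here, with 7 rapamycin libraries above every control and 3 controls below every rapamycin library. Its means were 186 ± 24.0 CPM with rapamycin and 155 ± 19.7 CPM in controls (SD, n = 10 each), with a log2 fold change of 0.26 ± 0.08 and an edgeR adjusted p of 0.0782. Without control 19 these were 0.22 ± 0.07 and 0.0787. By DESeq2 its adjusted p was 0.0350.

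Ndufa13, also known as GRIM-19 and described in cell death as well as in complex I, had 227, 311 and 360 CPM in rapamycin hearts, against 160, 258 and 296 CPM in control hearts. Of the rapamycin libraries 6 were above every control and 9 above the control median, and rapamycin 5 was the lowest. Its means of 302 ± 35.4 CPM with rapamycin and 251 ± 36.7 CPM in controls (SD, n = 10 each) gave a log2 fold change of 0.27 ± 0.09 with an edgeR adjusted p of 0.0947. It had 0.21 ± 0.07 and 0.0771 without control 19, and a DESeq2 adjusted p of 0.0486 with all libraries. Ndufa3, a small membrane subunit, had 145, 198 and 243 CPM in rapamycin hearts, against 105, 172 and 214 CPM in control hearts. A log2 fold change of 0.27 ± 0.10 had an edgeR adjusted p of 0.120, with 3 rapamycin libraries above every control. Of the Ndufa13 transcript 30.0% overlaps Tssk6 on the other strand, whose reads cannot be told apart from it without strand.

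Of the other members of the proximal arm, Ndufc2 and Ndufa8 differed little between groups relative to their spread. Ndufc2 had 115, 135 and 146 CPM in rapamycin hearts, against 106, 125 and 153 CPM in control hearts, so that the control range enclosed that of rapamycin. Its log2 fold change of 0.07 ± 0.06 was the smallest of the 37 (edgeR adjusted p = 0.560). Ndufa8, a cysteine-rich subunit facing the intermembrane space, varied most among the controls other than control 19, with an SD of 0.29 on the log2 scale. It had 141, 205 and 231 CPM in rapamycin hearts, against 86.0, 169 and 246 CPM in control hearts, the highest of all 20 libraries being control 13. Its log2 fold change of 0.17 ± 0.14 had an edgeR adjusted p of 0.522, and 0.09 ± 0.11 without control 19.

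Ndufa10, a matrix-facing relative of nucleoside kinases, varied nearly as much, with an SD of 0.26 on the log2 scale among those controls. It had 246, 332 and 380 CPM in rapamycin hearts, against 119, 278 and 382 CPM in control hearts, and no rapamycin library exceeded every control. A log2 fold change of 0.25 ± 0.14 had an edgeR adjusted p of 0.310, and 0.17 ± 0.10 without control 19. Ndufs5, another cysteine-rich subunit, had the lowest mean CPM of the set after Ndufb4. It had 50.7, 61.7 and 67.8 CPM in rapamycin hearts, against 24.0, 51.4 and 72.2 CPM in control hearts, a log2 fold change of 0.20 ± 0.13 with an edgeR adjusted p of 0.375. Ndufc1 and Ndufa11 completed the arm, at log2 fold changes of 0.25 and 0.16.

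The distal membrane arm, with 11 measured subunits, had a median log2 fold change of 0.18 (0.13 without control 19). Ndufb4 had the lowest mean CPM of the 37. It had 26.2, 29.3 and 33.9 CPM in rapamycin hearts, against 17.6, 26.4 and 32.6 CPM in control hearts. The groups overlapped, though 5 controls were below every rapamycin library. Its means were 29.5 ± 2.73 CPM with rapamycin and 25.5 ± 4.30 CPM in controls (SD, n = 10 each), with a log2 fold change of 0.21 ± 0.09 and an edgeR adjusted p of 0.161. Ndufab1, the mitochondrial acyl carrier protein that also serves fatty acid synthesis, had the smallest spread among controls other than control 19, an SD of 0.09 on the log2 scale, with a log2 fold change of 0.17. The others were Ndufb2, Ndufb3, Ndufb5, Ndufb6, Ndufb7, Ndufb8, Ndufb9, Ndufb10 and the X-linked Ndufb11. Their log2 fold changes lay between 0.13 (Ndufb5) and 0.28 (Ndufb10). Ndufb1 was listed under the older symbol Gm2695, outside the rule, at 7.22 ± 1.21 CPM in rapamycin hearts and 6.98 ± 1.11 CPM in control hearts (SD, n = 10 each), a log2 fold change of 0.05 ± 0.11.

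Ndufa4 carries a complex I name but is now assigned to complex IV, cytochrome c oxidase. It had 631, 780 and 933 CPM in rapamycin hearts, against 508, 718 and 900 CPM in control hearts. The groups overlapped almost wholly, and the log2 fold change of 0.12 ± 0.09 had an edgeR adjusted p of 0.432. Without it the median of the other 36 was 0.19 (0.13 without control 19). Its relative Ndufa4l2, outside the rule, had 13.5 ± 2.77 CPM in rapamycin hearts and 10.6 ± 2.52 CPM in control hearts (SD, n = 10 each), with a log2 fold change of 0.35 ± 0.14 and an edgeR adjusted p of 0.160.

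Across members the same libraries were high or low. Of the 10 rapamycin libraries, between 6 (Ndufc2) and 9 were above the control median, with a median over members of 8, and in 29 members at least 1 rapamycin library was above every control. In 0 of 37 members did the groups fail to overlap, with or without control 19, and every rapamycin library exceeded every control in 0.0143% of the genes tested. Within the rapamycin group, rapamycin 5 was lowest in 25 members and rapamycin 9 in the other 12. Rapamycin 5 also had that group's highest macrophage sum (1083 CPM), its highest fibroblast sum (3308 CPM) and its lowest cardiomyocyte sum (78539 CPM). Above the median of all 20 libraries lay all 37 members in rapamycin 8 and rapamycin 18 and 0 members in rapamycin 5, against 31 members in control 13 and control 17 and 0 in control 19 and control 20. The part of cell composition in these library levels was not tested.

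Summed over the 37 subunits, the normalised level was 8173 to 11294 CPM in rapamycin hearts, with a mean of 10210 ± 972 CPM (SD, n = 10). In control hearts it was 5369 to 10544 CPM, with a mean of 8924 ± 1456 CPM (SD, n = 10), and 9319 ± 793 CPM without control 19 (n = 9). The ranges overlapped in both cases. As a share of all counted reads, without scaling, the subunits made up 0.974% ± 0.059 in rapamycin hearts and 0.919% ± 0.108 in control hearts (SD, n = 10 each), or 0.951% ± 0.039 in the 9 other controls. The scaling factors averaged 0.959 in rapamycin libraries and 1.05 in control libraries, so normalised levels differed more between the groups than unscaled shares. With total counts alone the median of all genes was -0.13, that of the members 0.07, and 34 of 37 members were above 0. The members' median lay 0.20 above that of all genes with total counts, against 0.19 with the scaling factors.

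Set against markers of cardiomyocytes (contractile and calcium-handling genes, with Ckm and Mb), the subunits had a lower mean in rapamycin hearts, with overlapping groups. The 16 markers summed to 93425 ± 9052 CPM in rapamycin hearts and 75250 ± 18019 CPM in control hearts (80283 ± 8963 CPM without control 19). None of the 16 passed with all libraries, and their median log2 fold change was 0.29. Without control 19 the median was 0.21, and Myl2, the ventricular myosin light chain, and Tpm1, tropomyosin, rose in edgeR's test (adjusted p of 0.0430 and 0.0307). The subunit sum as a percent of the marker sum was 10.4 to 12.6 in rapamycin hearts, with a mean of 10.9 ± 0.70, and 10.6 to 17.9 in control hearts, with a mean of 12.3 ± 2.10 (SD, n = 10 each). Without control 19, which had the highest value, the control mean was 11.7 ± 0.72 (n = 9). With the cardiomyocyte level of each library as a covariate, 15 of 37 members had a log2 fold change above 0 and the median was -0.0066, and without control 19 the counts were 18 of 37 and the median -0.020. In RNA of whole hearts, fewer cells of a type and less RNA per cell cannot be told apart.

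**Figure D3:**
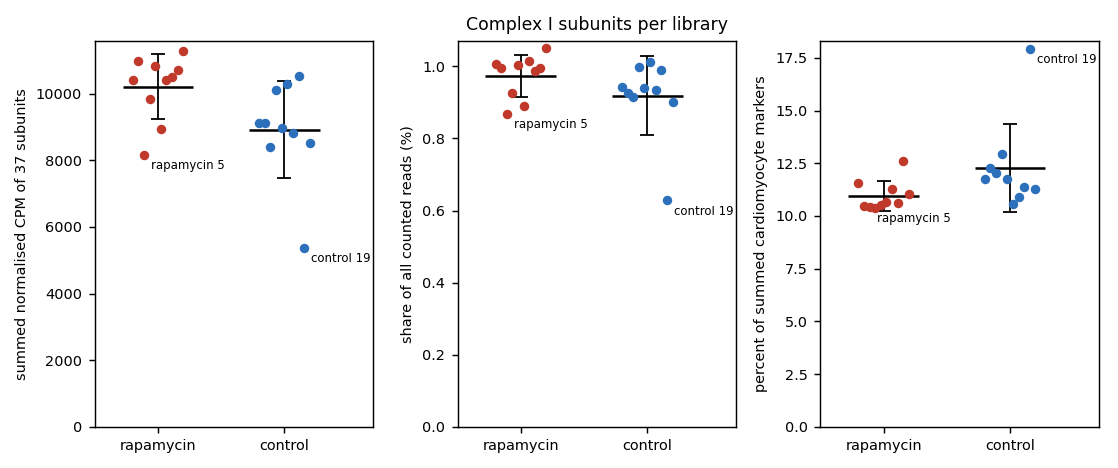
Sum of the 37 subunits in each heart (points), rapamycin left of control, as normalised CPM (left panel), percent of all counted reads (middle) and percent of the summed 16 cardiomyocyte markers (right), with the mean (line) and SD (bar). Control 19 is lowest in the first and second panels (5369 CPM in the first) and highest in the third, at 17.9%.

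In the other complexes of oxidative phosphorylation none of the genes passed with all libraries. The medians of the log2 fold changes were 0.25 in 4 complex II subunits, 0.20 in 9 nuclear complex III subunits, 0.15 in 14 nuclear complex IV subunits, Ndufa4 among them, and 0.21 in 16 ATP synthase genes, the inhibitor Atpif1 included, with 4, 9, 12 and 16 genes above 0. The smallest p-values belonged to Sdha, Sdhc and Sdhd in complex II, with log2 fold changes of 0.29, 0.33 and 0.16. In complex III they belonged to Uqcrc2 (0.20), Uqcr11 (0.23) and Uqcrq (0.23), in complex IV to Cox6c (0.22), Cox4i1 (0.26) and Cox5a (0.25), and in ATP synthase to Atp5f1 (0.20), Atp5e (0.29) and Atp5j (0.21). The smallest adjusted p among these lists was 0.127 (edgeR, Cox6c). Without control 19 the medians were 0.18, 0.13, 0.09 and 0.15 in complexes II, III, IV and ATP synthase. None passed in that fit either, and the smallest adjusted p was 0.0745 (edgeR, Sdha). The sum of the 37 members, Ndufa4 included, was also taken as a percent of that of these 16 ATP synthase genes. It was 71.3 ± 3.1 in rapamycin hearts and 73.6 ± 4.4 in control hearts (SD, n = 10 each), and 72.6 ± 3.1 without control 19. This difference was smaller than the spread of either group.

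The mitochondrially encoded subunits ND1, ND2, ND4, ND5 and ND6 had log2 fold changes above 0, with none of the 6 tested past the threshold. ND5 had 28983 ± 4171 CPM in rapamycin hearts and 22661 ± 4287 CPM in control hearts (SD, n = 10 each), a log2 fold change of 0.35 ± 0.12 with an edgeR adjusted p of 0.106. ND6 had a log2 fold change of 0.24 ± 0.10, in counts whose strand setting was not given. ND3 was listed at 2.76 ± 0.86 CPM in rapamycin hearts and 4.09 ± 1.69 CPM in control hearts, a log2 fold change of -0.57 ± 0.24 (edgeR adjusted p = 0.168), and ND4L at 0 in every library. By contrast, ND4 had 16623 CPM in rapamycin hearts and 14590 CPM in control hearts. How reads were assigned to ND3 and ND4L was not given, so these 2 rows cannot be read as transcript levels. The sum of the 37 nuclear members, Ndufa4 included, was also taken as a percent of the mitochondrially encoded sum. It was 10.6 ± 1.1 in rapamycin hearts and 10.9 ± 1.4 in control hearts (SD, n = 10 each). Without control 19, which had the lowest value of all libraries at 8.49, the control mean was 11.2 ± 1.1 (n = 9).

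Factors that assemble the complex, which are not part of the finished enzyme, had a median log2 fold change of 0.09 (0.06 without control 19). Of 18 tested, 15 were above 0 (12 without control 19), and the difference between this list and the subunits was not tested. None passed in edgeR's test, the smallest p-values being those of Ndufaf6 (0.20 ± 0.09), Ndufaf7 (-0.11 ± 0.05), and Ndufaf8 (0.17 ± 0.09). Among 14 regulators of respiratory genes, none passed, 12 were above 0 and the median was 0.11. Gabpa, the DNA-binding subunit of nuclear respiratory factor 2, had 85.0 ± 5.84 CPM in rapamycin hearts and 75.0 ± 5.37 CPM in control hearts (SD, n = 10 each), a log2 fold change of 0.18 ± 0.05 with an edgeR adjusted p of 0.0525. The coactivator Ppargc1b had 0.37 ± 0.12 and 0.0833, and the mitochondrial transcription factor Tfb2m 0.20 ± 0.06 and 0.0843. Nrf1 and Yy1, named here for the motifs above and not for their p, had log2 fold changes of 0.03 ± 0.06 and 0.08 ± 0.05.

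**Figure D4:**
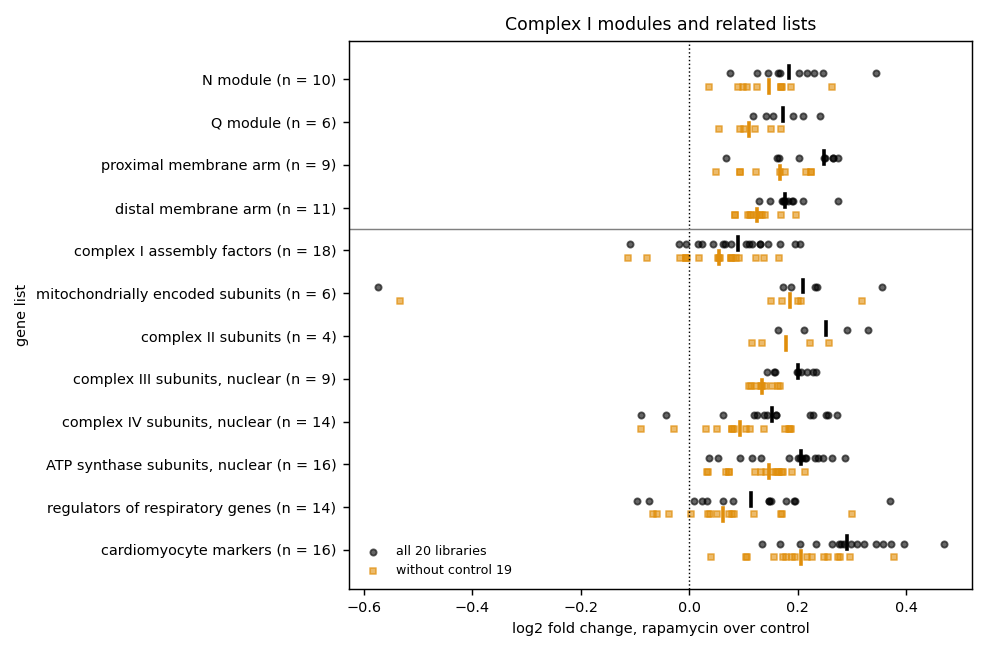
Fitted log2 fold change (rapamycin over control) of each gene in the 4 complex I modules and in related lists, with all 20 libraries (circles) and without control 19 (squares), and the median of each list as a bar. Medians lie between 0.09 (assembly factors) and 0.29 (cardiomyocyte markers) with all libraries. The point at -0.57 is ND3, listed at only 2.76 CPM in rapamycin and 4.09 CPM in control hearts.

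Per kilobase of transcript, levels of the subunits spanned from 20.9 to 1291 CPM per kb in rapamycin hearts, with a median of 242, and from 18.5 to 1189 CPM per kb in control hearts, with a median of 219. Ndufa4 was highest, at 1291 ± 140 CPM per kb with rapamycin and 1189 ± 169 CPM per kb in controls (SD, n = 10 each). It stood apart from the next, Ndufb9, at 681 ± 76 and 605 ± 113 CPM per kb. Ndufab1 (20.9 ± 1.7 and 18.5 ± 3.1 CPM per kb), Ndufb2 (23.9 ± 2.4 and 21.1 ± 3.6) and Ndufb4 (30.4 ± 2.8 and 26.3 ± 4.4) were lowest in both groups and set off from Ndufs5 (89.7 ± 9.5 and 77.9 ± 20.1). From Ndufs5 up to Ndufb8, neighbours in the control order lay within 1 SD of each other except Ndufb6 and Ndufs3. These levels rest on GENCODE M21 transcript lengths of 419 to 4371 bases, and the longest were those of Ndufb2 and Ndufab1.

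Near-identical copies elsewhere in the genome limit what uniquely mapped reads can count. Of the 37 subunits, 23 shared at least 1 window of 50 bases within 2 mismatches with another annotated gene, and 14 shared none. Genes that overlap a subunit at its own locus were left out of this count. In addition, 14 subunits overlap another annotated gene, 12 of them one on the other strand. By percent of the transcript, the largest overlaps were those of Ndufb6 with Smim27 (39.0%) and of Ndufa13 with Tssk6, both on the other strand. Next was that of Ndufb9 with Gm49356 on the same strand (28.6%). Above 30% of windows were shared by 8 members, led by Ndufs3 (74.5%, with Gm12251), Ndufs5 (42.8%, with BC002163) and Ndufa11 (37.9%) and including Ndufb4, Ndufs6, Ndufa7, Ndufb11 and Ndufa12, so that the absolute levels of these are uncertain. The copy Gm12251 held 39 counts over all libraries and BC002163 held 89. The median log2 fold change was 0.19 in the 14 members that share none and 0.18 in the 23 that share some (0.13 and 0.12 without control 19). Those that share none include Ndufb6, Ndufb9 and Ndufs1, which overlap another gene at their own locus.

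**Figure D5:**
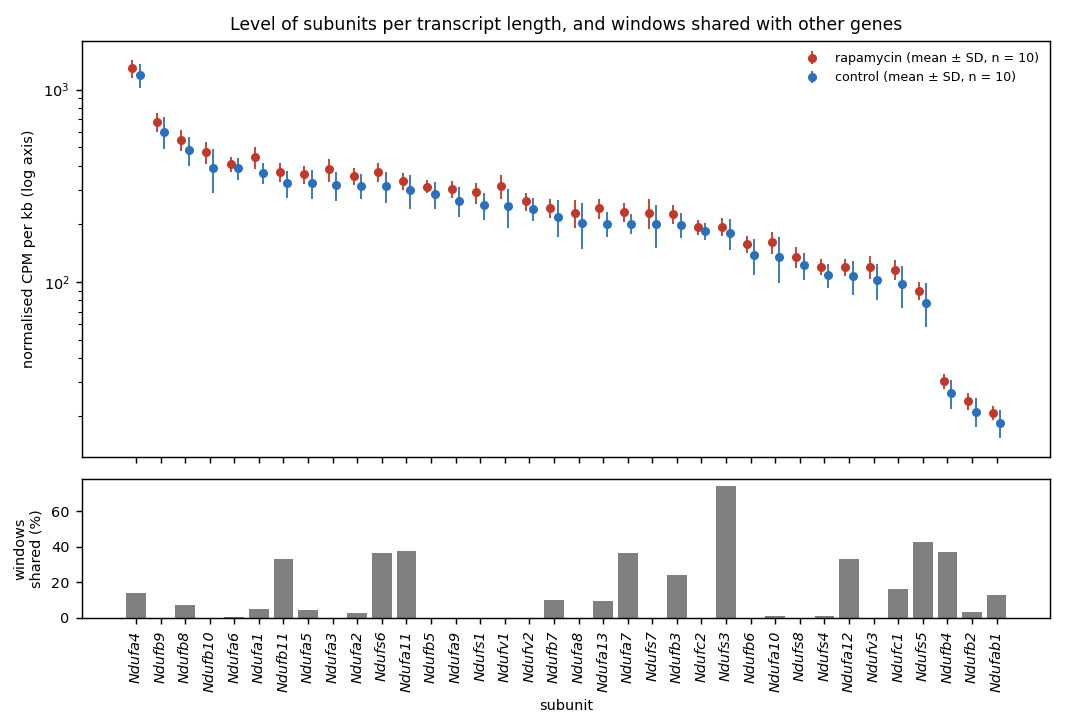
Normalised CPM per kb of transcript (log axis, mean ± SD, n = 10) of 36 subunits in rapamycin and control hearts, ordered by the control level, and below it the percent of 50-base windows shared with another gene within 2 mismatches. Genes that overlap a subunit at its own locus are not counted in that percent. Ndufa4 is highest at 1291 and 1189 CPM per kb (rapamycin and control), and Ndufab1 lowest at 20.9 and 18.5 CPM per kb.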

How the data were processed

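Poly(A) RNA of 20 hearts was read in pairs of 50 bases. Per the series' design text, only reads with a unique site in MGSCv37 and at most 2 mismatches were kept. The aligner, the counter and the strand setting were not given in the sources used here. The submitters' processing notes name edgeR, with no version. The authors deposited a table of raw counts per gene symbol, analysed here, and a table of CPM for 700 genes. For the 696 symbols that matched, the deposited CPM equal counts divided by the column total within 2.77e-05. That table holds 0 of the 37 subunits and 1 mitochondrially encoded complex I gene, and was not used further.

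Groups and numbers of the libraries were read from the sample titles. The closest of 90 within-group pairs differed by a chi-square of 5.72 per degree of freedom, so all libraries were kept as separate animals. Genes passing filterByExpr were tested with edgeR 4.0.16 (TMM scaling, quasi-likelihood F-test, R 4.3.3) over all 20 libraries, adjusted by Benjamini-Hochberg over all of them at 0.05. CPM in the text are scaled by these factors. Alternatives were RLE factors, total counts, no filter, DESeq2 1.42.0, each library left out, some libraries with lung or liver transcripts left out, and a cardiomyocyte covariate. On simulated data for 13940 genes the test recovered 0% of genes changed by 0.2 on the log2 scale, 30% at 0.4, 94% at 0.8 and 100% at 1.2, with 50 genes each. The simulation gave every gene the same coefficient of variation between animals, 0.2, and drew the changed genes from all levels. Over the members the median coefficient was 0.162.

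Symbols, lengths, start codons and overlaps came from GENCODE M21, names also from RefSeq, and shared windows from BLAST 2.17.0+. These are of the build GRCm38 and not the authors' build, so they served for names, lengths, overlaps and sequences only, and coordinates in the text are of GRCm38. Genes with full values were the 8 smallest p, 3 smallest changes, 2 highest and 2 lowest means and 2 largest control spreads among members. The 3 smallest p of each related list were named, many with a log2 fold change only. Values of 1 subunit are not reported here and enter only the counts, sums and medians. The members, lists and markers were chosen with earlier results of these data known, so none is independent evidence.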

Additional observations from a re-analysis of the deposited data

Results flagged for a closer look

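In 30 of 72 sets of 10 libraries (36 subunits in each group) the lowest library stood off from its group by a larger part of the group's range than Dixon's criterion allows. Both ends of each set were examined, and chance alone gives about 1 set in 20 with such a library at either end. The subunits are not independent, since the same libraries recur.

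In 28 subunits that library was control 19. Its gap to the next control, as a fraction of the control range, was largest in Ndufab1 (0.756), Ndufb2 (0.691), Ndufv1 (0.652), Ndufs3 (0.651), Ndufb11 (0.64), Ndufa11 (0.637), Ndufa13 (0.634) and Ndufb8 (0.619). It was 0.606 in Ndufs5, 0.6 in Ndufs6, 0.598 in Ndufa1, 0.595 in Ndufa12, 0.587 in Ndufa9, 0.585 in Ndufc1, 0.567 in Ndufa10, 0.556 in Ndufb9 and 0.55 in Ndufa5. In Ndufb10 it was 0.535, in Ndufa6 0.533, in Ndufs7 0.529, in Ndufb7 0.501, in Ndufs4 0.496, in Ndufb3 0.494 and in Ndufb6 0.491. The smallest of these gaps were 0.474 in Ndufs1, 0.472 in Ndufa8, 0.472 in Ndufb5 and 0.468 in Ndufa4.

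In 2 subunits the lowest rapamycin library, rapamycin 5, stood off in the same way, with a gap of 0.505 of the range in Ndufab1 and 0.499 in Ndufv1. Without rapamycin 5, Ndufa1 and Ndufa13 passed the threshold in edgeR's test (adjusted p of 0.0425 and 0.0399), beside 5.65% of all genes in that fit, 1.41% being higher with rapamycin.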

How the results depend on the processing

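The 37 log2 fold changes stayed above 0 with RLE factors, without the filter on low counts, by DESeq2 and in each of the 20 fits that left out 1 library. They also did so without 3 libraries with liver transcripts (rapamycin 9, control 7 and rapamycin 4). The 8 liver genes summed to 383, 67.4 and 43.5 CPM in these libraries. Control 1, at 130 CPM, and other libraries above 43.5 CPM were kept in that fit. The members' median ranged from 0.12 (without control 19) to 0.22 (without control 17) over the fits that left out 1 library, in which the count of members above 0 was 37 throughout. It was 0.09 without the 4 libraries with lung transcripts (control 19, control 1, rapamycin 15 and control 20). Leaving out 1 library gave 0 to 2 members called, the 2 (Ndufa1 and Ndufa13) without rapamycin 5, beside 1.18% to 5.65% of all genes (5.65% without rapamycin 5), and 0 to 2 genes of the related lists. DESeq2 called 2 members (the same ones), beside 6.3% of 16402 genes, and 4 genes of the related lists (ND5, Ppargc1b, Gabpa and Tfb2m). Total counts called 0 members and 1 related gene, the assembly factor Ndufaf7, which fell. Over all genes, edgeR called 469 with all libraries, DESeq2 1033 and total counts 1332 (9.56%). Without rapamycin 9, control 7 and rapamycin 4, edgeR called 8 (0.0571%). The part of liver transcripts in that count was not tested.

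Direction changed in the following cases, and the cause was not tested. With total counts, log2 fold changes below 0 were those of Ndufc2 (-0.053), Ndufa6 (-0.043) and Ndufa4 (-0.00033). Without the 4 libraries with lung transcripts, that of Ndufa6 was -0.022. With the cardiomyocyte covariate, the median was -0.0066, 15 members were above 0 and none was called (0.452% of all genes were), and those below 0 included Ndufa8 (-0.11), Ndufs3 (-0.093), Ndufb7 (-0.082), Ndufs7 (-0.076), Ndufs5 (-0.062), Ndufa12 (-0.058), Ndufa11 (-0.056), Ndufa6 (-0.052), Ndufa10 (-0.033), Ndufb9 (-0.032), Ndufs8 (-0.022), Ndufb5 (-0.02), Ndufab1 (-0.02), Ndufa5 (-0.019), Ndufb8 (-0.017), Ndufc2 (-0.015), Ndufb2 (-0.014), Ndufb6 (-0.012), Ndufc1 (-0.0055), Ndufa4 (-0.0012) and Ndufb10 (-0.00076). With that covariate and without control 19, the median was -0.020, 18 members were above 0 and none was called (0.15% of all genes were), and those below 0 included Ndufa8 (-0.19), Ndufs7 (-0.17), Ndufb7 (-0.13), Ndufs3 (-0.11), Ndufs5 (-0.080), Ndufa12 (-0.068), Ndufb9 (-0.067), Ndufa10 (-0.062), Ndufb10 (-0.049), Ndufb8 (-0.049), Ndufc1 (-0.046), Ndufc2 (-0.045), Ndufa6 (-0.043), Ndufb6 (-0.043), Ndufa11 (-0.041), Ndufs8 (-0.038), Ndufb5 (-0.024) and Ndufa5 (-0.02).

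No paired analysis was possible because each library number occurs in 1 group only. The simulated test recovered 0% of changes of 0.2 and 30% of changes of 0.4, the second lying above the members' range of 0.07 to 0.35. It used a coefficient of variation of 0.2 for every gene, against a median of 0.162 over the members. It therefore does not give the recovery for these subunits. Counting error alone, as a percent of the SD between libraries on the log2 scale, had a median of 19.6 over 36 members in rapamycin hearts and 21.1 in controls other than control 19. It was highest at 65.7 (Ndufb4, rapamycin) and 60.4 (Ndufab1, control). P-values set the difference between the groups against the spread between these animals.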
